A study of Mus musculus with 4 samples.

Results

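The 6 genes described here encode the receptors that bind the Fc part of immunoglobulin G in the mouse, together with the signalling chain that most of them need: Fcgr1, Fcgr2b, Fcgr3, Fcgr4, Fcer1g and Fcgrt. They were taken by symbol from the 32285 genes of the deposited matrices, and all 6 were found. They were read in the classical and nonclassical monocyte-like, cavity-type macrophage-like, B cell-like, NK cell-like and basophil-like cells of mouse blood.

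The samples were mononuclear cells from the blood of mice of the strains BL/6 and SM/J, aged 12 or 20 months, profiled by 10x Genomics 3' single-cell RNA sequencing. Blood of every group was drawn by heart puncture, layered on a density gradient, spun slowly against platelets and treated with red-cell lysis buffer. Both ages of a strain were tagged with lipid oligos and run together as 1 10x sample, and the deposited files divide each run by age, which gives 4 matrices called libraries here. Each strain and age thus had 1 library without a replicate, so no test of a strain or an age was possible, and strain, 10x run and mapping of SM/J reads to another strain's reference cannot be told apart. Neither sex nor the number of mice is given in the sources used here. Each library held 3 tags. Cells that share a tag are called an aliquot, and because no source says that a tag marks an animal, the spread between aliquots is shown only as a description.

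Fc receptors let cells sense antibody that has bound a target. FcγRI, FcγRIII and FcγRIV, the products of Fcgr1, Fcgr3 and Fcgr4, activate the cell and do so through the immunoreceptor tyrosine-based activation motif of the common γ chain, encoded by Fcer1g, which also serves the high-affinity IgE receptor and several other receptors. FcγRIIb, encoded by Fcgr2b, carries an inhibitory motif, recruits the phosphatase SHIP1 and restrains both the activating receptors and the B cell receptor. FcRn, encoded by Fcgrt, pairs with β2-microglobulin and returns internalised IgG to the circulation. In mouse blood, Fcgr4 is known as a mark of nonclassical monocytes and Fcgr1 of classical ones, while Fcgr2b is the Fcγ receptor of B cells.

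In the RefSeq annotation of GRCm38.p6 (the submitters' processing notes name mm10, the same assembly series), Fcgr2b lies on the minus strand at chr1:170960558-170976071, Fcgr4 on the plus strand at chr1:171018926-171029761, and Fcgr3 on the minus strand at chr1:171051169-171065915. Fcer1g lies on the minus strand at chr1:171229572-171234349, Fcgr1 on the minus strand at chr3:96282909-96293969 and Fcgrt on the minus strand at chr7:45092993-45103822. Transfer RNA genes and Mir6546 lie inside Fcgr3, and Gm26110 inside Fcgr4. How reads were divided between similar members of the family is not given in the sources used here. The 250 bases before the annotated start are printed for the activating genes Fcgr1 and Fcgr4 and for the inhibitory Fcgr2b, as genes of opposite action that were past the fold between libraries below. They were read 5' to 3' on the strand of the gene at chr3:96293970-96294219, chr1:171018676-171018925 and chr1:170976072-170976321, and capitals mark TTCCTC or its reverse complement GAGGAA, letters picked after the sequences had been read.
Fcgr1: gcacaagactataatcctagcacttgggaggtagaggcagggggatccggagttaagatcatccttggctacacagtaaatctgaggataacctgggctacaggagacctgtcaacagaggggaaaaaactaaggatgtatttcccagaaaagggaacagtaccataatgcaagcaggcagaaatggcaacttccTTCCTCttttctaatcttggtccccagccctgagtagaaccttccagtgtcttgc
Fcgr4: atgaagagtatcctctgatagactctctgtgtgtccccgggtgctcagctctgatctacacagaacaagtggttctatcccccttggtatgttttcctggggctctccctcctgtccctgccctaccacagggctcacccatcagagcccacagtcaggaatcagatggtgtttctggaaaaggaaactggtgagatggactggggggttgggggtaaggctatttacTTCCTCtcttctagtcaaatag
Fcgr2b: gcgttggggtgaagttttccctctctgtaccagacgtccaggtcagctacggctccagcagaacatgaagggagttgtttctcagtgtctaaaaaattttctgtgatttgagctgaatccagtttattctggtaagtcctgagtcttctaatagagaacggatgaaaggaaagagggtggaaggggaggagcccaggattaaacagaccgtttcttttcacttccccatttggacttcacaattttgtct
The capitals stand 55 bases before the start of Fcgr1 and 22 bases before that of Fcgr4. Fcgr3 held the same letters 6 bases before one of the 2 starts listed for it, in a window inside the annotated gene that is not printed. The windows of Fcgr2b, Fcer1g and Fcgrt held none. Of 32851 such windows in the RefSeq table, 7639 (23.3%) held these letters on either strand, so a match in 3 of 6 describes the sequences and no more.

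After filtering, 3398 BL/6 cells of 12 months, 3102 BL/6 cells of 20 months, 2407 SM/J cells of 12 months and 2689 SM/J cells of 20 months were kept, with medians of 4060, 4914, 4729 and 8837 unique molecular identifiers (UMIs, counted transcripts) per cell. No barcode was shared by the ages of a strain, and 1 to 3 barcodes were shared by libraries of different strains. Cells were clustered without the 6 genes and named from marker lists. All 10 markers of cavity-type macrophages, among them Prg4, Gata6, Timd4 and C1qa, had UMIs in each library of the class of that name. All 8 markers of nonclassical monocytes likewise had UMIs in each library of theirs. B cell-like cells also had UMIs of all these markers in each library, and the clusters were named from the same lists. The presence of the markers therefore cannot show what the cells are. Cavity-type macrophages are residents of the peritoneal and pleural spaces, and how they came to be in these blood preparations was not tested. Classes differed in size: the 4 libraries held, in the order just given, 274, 484, 114 and 99 classical monocyte-like cells, 321, 685, 408 and 172 nonclassical ones, and 30, 38, 35 and 398 cavity-type macrophage-like cells. There were 2004, 951, 1282 and 1611 B cell-like cells, 97, 66, 60 and 52 NK cell-like cells, and 40, 56, 15 and 11 basophil-like cells.

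Levels are given as CPM, the UMIs of a gene scaled to all UMIs of its class in that library. UMIs come from transcript ends, so gene length was not divided out. Because droplets also catch free RNA, a gene was read in a class only where its UMIs per cell were at least 3 times those of T cell-like cells in the library where it was higher, with at least 50 UMIs over both libraries of a comparison and at least 20 cells in each. In T cell-like cells (median 3994 to 5203 UMIs per cell) the share of cells with a UMI was at most 0.873% for Fcgr4, 0.556% for Fcgr1, 5.24% for Fcgr3, 6.32% for Fcgr2b, 10.0% for Fcer1g and 14.5% for Fcgrt. A difference is called past the fold where the ratio of CPM + 1 is at least 1.5 (0.58 on the log2 scale) and its exact 95% interval excludes no change. All intervals cover counting error only and say nothing about differences between mice.

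Each gene had its own order of classes. Fcgr1 was highest in classical monocyte-like cells, Fcgr3 in cavity-type macrophage-like cells, and Fcgr4 in nonclassical monocyte-like cells of BL/6 but in cavity-type macrophage-like cells of SM/J at 20 months. Fcer1g was abundant in monocyte-like, NK cell-like and basophil-like cells alike. NK cell-like cells held it with few UMIs of the IgG-binding chains, and Fcgr2b was the highest of the 6 genes in BL/6 B cell-like cells.

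**Figure D1:**
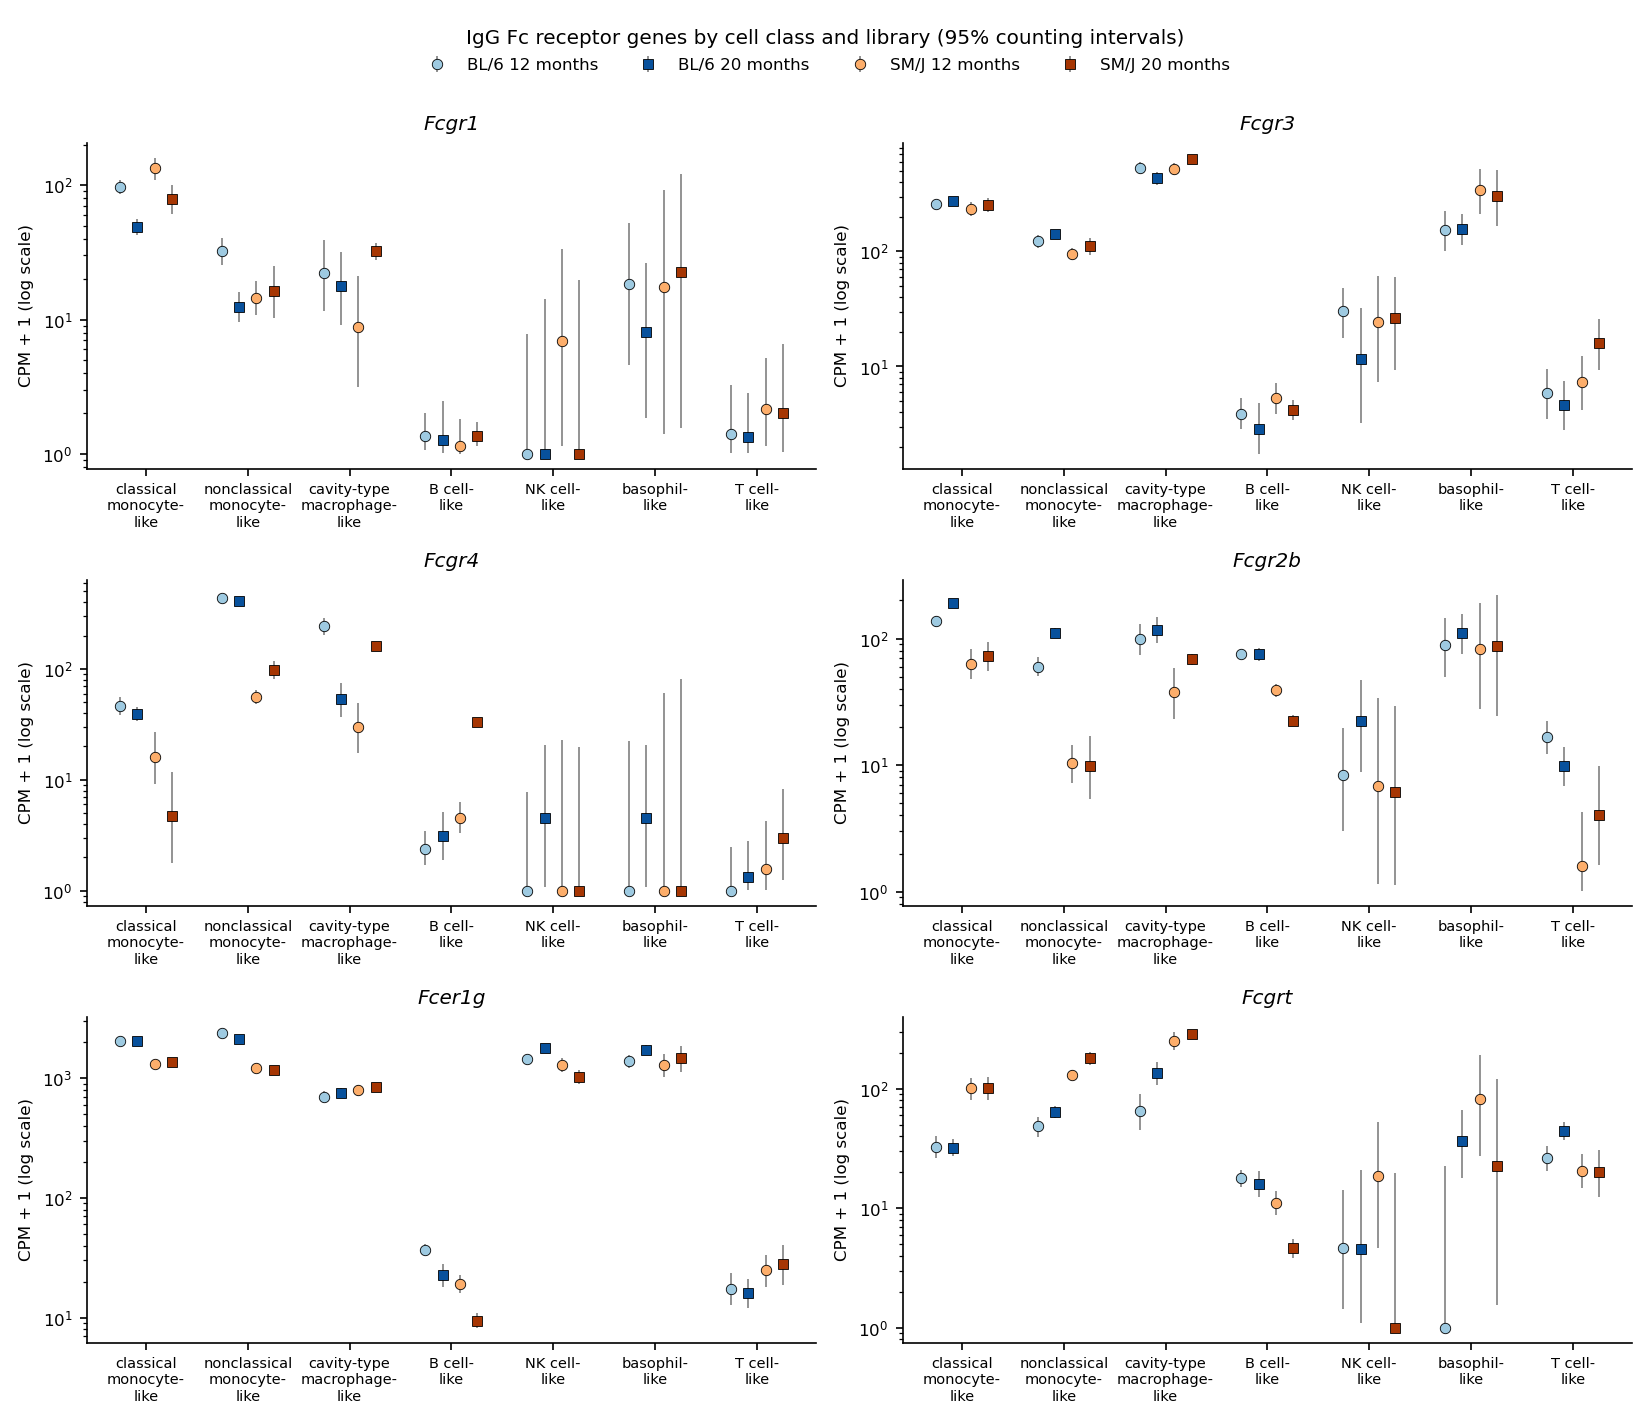
Level of each IgG Fc receptor gene (CPM + 1, log scale) in the 6 classes and in T cell-like cells, with 1 point per library and exact 95% counting intervals. Fcgr4 of nonclassical monocyte-like cells stood at 436 and 412 CPM in BL/6 against 55.3 and 97.0 CPM in SM/J, and Fcgrt was higher in the monocyte-like and macrophage-like cells of SM/J.

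In classical and nonclassical monocyte-like cells, the low-affinity activating receptor Fcgr3 varied least of these genes with the main processing. In macrophage-like cells Fcer1g varied less, with 0.17 as its largest log2 ratio. The Fcgr3 level in classical monocyte-like cells was 257 CPM in BL/6 at 12 months, 275 in BL/6 at 20 months, 232 in SM/J at 12 months and 251 in SM/J at 20 months. In nonclassical monocyte-like cells the levels were 121, 139, 93.8 and 111 CPM, in the same order of libraries, and in cavity-type macrophage-like cells 527, 432, 524 and 629 CPM. Macrophage-like cells thus held the most Fcgr3 in every library, and nonclassical monocyte-like cells the least of the 3 classes. With the main processing, no comparison of ages or strains put Fcgr3 past the fold in any of these classes where it was read. The largest of these ratios was 0.54 (0.36 to 0.73) on the log2 scale, for SM/J over BL/6 macrophage-like cells at 20 months. Under other processing settings this ratio ranged from 0.39 to 0.89, with the upper end above the fold. With each strain clustered alone, SM/J over BL/6 in nonclassical monocyte-like cells was -0.96 at 12 months and -0.78 at 20 months, in place of -0.37 and -0.33.

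Basophil-like cells also held Fcgr3, at 152, 156, 343 and 302 CPM. These rest on 26, 44, 21 and 14 UMIs, and the 2 SM/J libraries had too few basophil-like cells for a ratio. In BL/6 the ages differed by 0.04 (-0.69 to 0.79). In NK cell-like cells, where FcγRIII (CD16) is the known receptor of antibody-dependent killing, Fcgr3 had only 16, 3, 4 and 5 UMIs. The share of NK cell-like cells with an Fcgr3 UMI was 14.4%, 4.55%, 6.67% and 9.62% (median depths of 4738, 3740.5, 2502.5 and 3108 UMIs), against 2.03%, 1.32%, 3.06% and 5.24% of T cell-like cells (median depths of 5074, 5203, 4319.5 and 3994 UMIs). The NK cell-like share was above that of T cell-like cells in each library, but too few UMIs were counted for a comparison of ages or strains.

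The high-affinity receptor Fcgr1 was lower at 20 than at 12 months in the classical monocyte-like cells of both strains. Its level was 96.3 CPM at 12 months and 48.1 CPM at 20 months in BL/6, and 132 and 77.8 CPM in SM/J. The 3 aliquots of BL/6 spanned 91.6 to 107 CPM at 12 months and 39.2 to 53.8 CPM at 20 months, so the ages did not overlap. Those of SM/J spanned 102 to 165 and 42.9 to 109 CPM, which do overlap. The log2 ratio of 20 over 12 months was -0.99 (-1.25 to -0.72) for BL/6, while SM/J had -0.76 (-1.22 to -0.31), both past the fold. Under other processing settings the SM/J ratio ranged from -0.94 to -0.56, and with 1 aliquot left out from -1.09 to -0.52. Both ranges reach under the fold. Of the strains, SM/J was higher, at 12 months by 0.46 (0.12 to 0.78) and at 20 months by 0.68 (0.26 to 1.09), the latter past the fold. With each strain clustered alone these were 1.01 and 1.02. Over all other settings they ranged from 0.25 to 1.01 and from 0.46 to 1.14. With 1 aliquot left out they ranged from 0.22 to 0.64 and from 0.36 to 0.84, so the ratio at 20 months was not always past the fold. In BL/6 the share of classical monocyte-like cells with an Fcgr1 UMI was 46.7% at 12 months and 31.0% at 20 months, at median depths of 8458 and 8281 UMIs, and 7.78% and 4.55% after each cell was thinned to 1000 UMIs. In SM/J the shares were 43.0% and 39.4% at median depths of 6869 and 7205 UMIs, and 7.02% and 9.09% when thinned, so the thinned share there did not follow the CPM.

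Nonclassical monocyte-like cells held less Fcgr1: 31.3 CPM in BL/6 at 12 months, 11.5 in BL/6 at 20 months, 13.5 in SM/J at 12 months and 15.4 in SM/J at 20 months. BL/6 at 12 months stood above the other 3 libraries, and its aliquots (27.1 to 40.2 CPM) lay above every aliquot of those (6.34 to 25.6 CPM). The age ratio in BL/6 was -1.37 (-1.88 to -0.87), past the fold, and in SM/J 0.17 (-0.63 to 0.94), not past it. Whether the strains differed in this was not tested. SM/J over BL/6 was -1.16 (-1.71 to -0.61) at 12 and 0.39 (-0.38 to 1.12) at 20 months, and -2.36 and -1.25 with each strain clustered alone. In cavity-type macrophage-like cells Fcgr1 rested on 11, 10, 4 and 179 UMIs, or 21.2, 16.9, 7.79 and 31.3 CPM. The SM/J age ratio of 1.88 (0.60 to 3.39) was past the fold, with its lower bound near it.

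**Figure D2:**
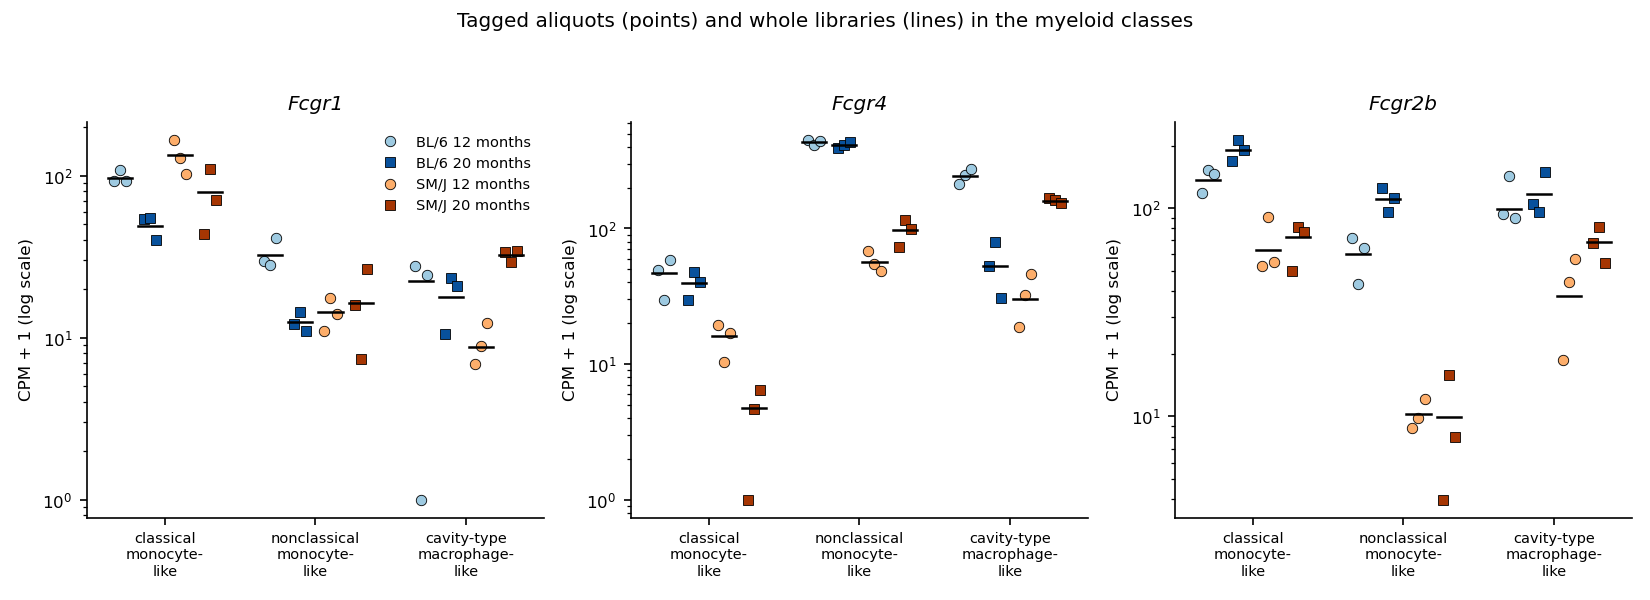
Fcgr1, Fcgr4 and Fcgr2b (CPM + 1, log scale) in the 3 tagged aliquots of each library (points) and in the whole library (lines), for classical and nonclassical monocyte-like and cavity-type macrophage-like cells. A point at 1 is an aliquot with no UMI. In macrophage-like cells the Fcgr4 points of BL/6 lay at 212 to 275 CPM at 12 months and 29.6 to 78.4 CPM at 20 months, and those of SM/J at 17.7 to 45.0 and 153 to 166 CPM.

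Fcgr4, an activating receptor that binds IgG2a and IgG2b, differed between the strains in all 3 myeloid classes. In nonclassical monocyte-like cells its level was 436 CPM (947 UMIs) in BL/6 at 12 months, 412 CPM (1937 UMIs) in BL/6 at 20 months, 55.3 CPM (172 UMIs) in SM/J at 12 months and 97.0 CPM (120 UMIs) in SM/J at 20 months. The BL/6 aliquots spanned 391 to 449 CPM over both ages, and the SM/J aliquots 47.5 to 114 CPM, so the strains did not overlap. SM/J over BL/6 was -2.96 (-3.20 to -2.73) on the log2 scale at 12 months, which is 7.77-fold lower, and -2.07 (-2.35 to -1.81) at 20 months. A UMI of Fcgr4 was found in 86.3% and 84.1% of BL/6 cells but in 26.5% and 31.4% of SM/J cells, at median depths of 5891, 5454, 5632 and 6508 UMIs.

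Between ages, Fcgr4 of nonclassical monocyte-like cells was level in BL/6, with a ratio of -0.08 (-0.20 to 0.03). It was higher at 20 months in SM/J, with a ratio of 0.80 (0.46 to 1.14), and the SM/J aliquots of 71.6 to 114 CPM at 20 months lay above those of 47.5 to 67.1 CPM at 12 months. Thinned to 1000 UMIs, the SM/J share was 6.97% at 12 months and 4.68% at 20 months, so it did not follow the CPM. The nonclassical monocyte-like cells of the strains were mainly in different clusters, cluster 1 for BL/6 and cluster 6 for SM/J. With each strain clustered alone, the strain ratios were -2.29 at 12 months and -1.63 at 20 months.

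Transcripts of B cells differed along with the strain. The summed level of the 7 B cell markers in nonclassical monocyte-like cells was 45.6, 43.8, 1133 and 491 CPM, and all 7 had UMIs in each library. A cluster of 39 SM/J cells at 12 months and 13 at 20 months held B cell transcripts. With every cell that had a UMI of Cd79a, Cd79b, Ms4a1, Cd3d, Cd3e or Cd3g left out, the strain ratios of Fcgr4 were -3.04 and -1.94. Red-cell markers in nonclassical monocyte-like cells summed to 51.6, 1161, 2253 and 80.8 CPM. Free RNA can remain in the cells that were kept, and the part of other lineages in the Fcgr4 difference was not tested.

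In classical monocyte-like cells Fcgr4 was low in all libraries, at 45.6, 38.6, 15.2 and 3.71 CPM (116, 178, 13 and 3 UMIs). SM/J was below BL/6 at 12 months, by -1.52 (-2.40 to -0.73), and at 20 months, by -3.07 (-4.50 to -1.72), the latter on 3 UMIs. These cells too came from different clusters, cluster 4 for BL/6 and cluster 17 for SM/J, and with each strain clustered alone the ratio at 20 months was 0.094. The direction at 20 months thus changed with the clustering, and the cause was not tested. BL/6 ages differed by -0.24 (-0.57 to 0.11), and by -0.91 with that clustering.

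Cavity-type macrophage-like cells gave the opposite age patterns in the strains. Fcgr4 stood at 243 CPM (126 UMIs in 30 cells) in BL/6 at 12 months and 52.3 CPM (31 UMIs in 38 cells) in BL/6 at 20 months. In SM/J it stood at 29.2 CPM (15 UMIs in 35 cells) at 12 months and 159 CPM (912 UMIs in 398 cells) at 20 months. The high libraries were thus BL/6 at 12 months and SM/J at 20 months, and no aliquot of a high library (153 to 275 CPM) overlapped one of a low library (17.7 to 78.4 CPM). The age ratio of BL/6 was -2.20 (-2.80 to -1.63), or 4.58-fold lower at 20 months. That of SM/J was 2.41 (1.70 to 3.21), or 5.31-fold higher.

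Consequently the strain ratio changed sign with age, from -3.01 (-3.86 to -2.26) at 12 months to 1.59 (1.08 to 2.14) at 20 months. The share of macrophage-like cells with an Fcgr4 UMI was 90.0%, 31.6%, 25.7% and 66.6%, at median depths of 16168, 13767, 15198 and 12846 UMIs. Thinned to 1000 UMIs it was 16.7%, 7.89%, 0% and 14.3%, and thinning left 34 SM/J cells of 12 months, too few to read an order at that depth. The low levels rest on few cells, 4 to 18 per aliquot outside SM/J at 20 months. Their own markers summed to 13437 to 17134 CPM, while platelet transcripts summed to 923, 2472, 2800 and 1876 CPM and B cell markers to 15.4, 147, 115 and 117 CPM. Red-cell markers summed to 36.7, 30.4, 5528 and 789.8 CPM and classical monocyte markers to 6004, 7780.2, 6313 and 5447 CPM. Platelet transcripts were lowest in BL/6 at 12 months and red-cell transcripts highest in SM/J at 12 months, and their part in the result was not tested. Without cells that held the B and T cell transcripts just named, the age ratios were -2.18 in BL/6 and 3.06 in SM/J.

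**Figure D3:**
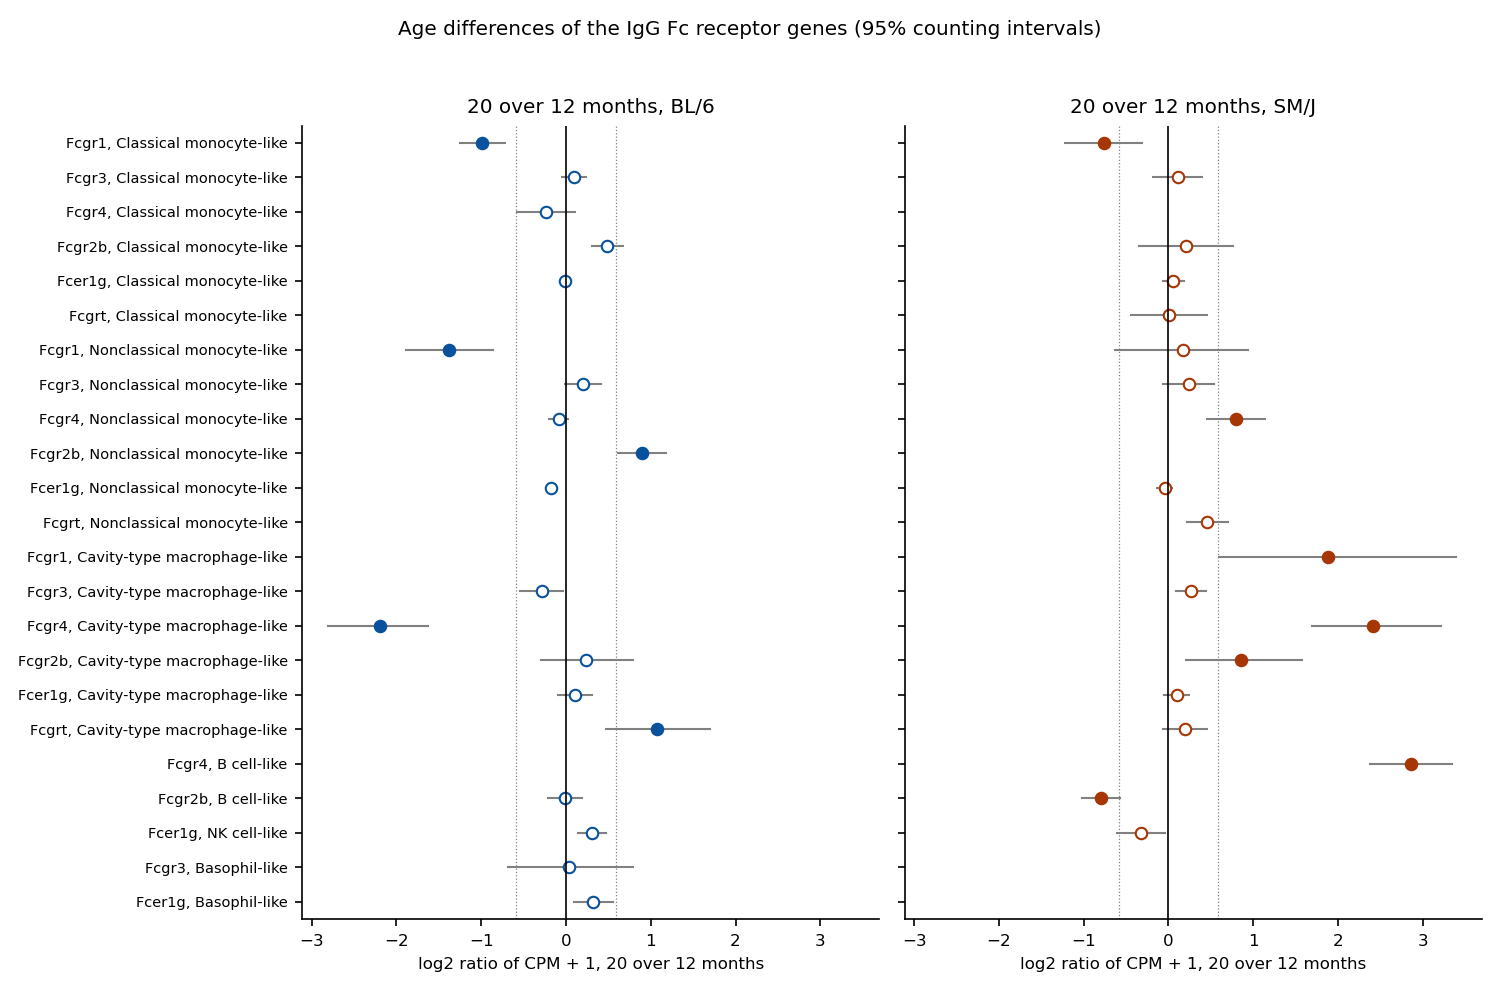
Log2 ratio of CPM + 1 at 20 over 12 months for each gene and class that could be read, BL/6 on the left and SM/J on the right, with 95% counting intervals; filled points were past 1.5-fold and dotted lines mark that fold. Fcgr4 of cavity-type macrophage-like cells lies at -2.20 in BL/6 and 2.41 in SM/J, and Fcgr1 of classical monocyte-like cells lies below 0 in both strains.

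The inhibitory receptor Fcgr2b was lower in SM/J than in BL/6 in each monocyte-like and macrophage-like class. In nonclassical monocyte-like cells the levels were 59.0 CPM (128 UMIs) and 110.3 CPM (519 UMIs) in BL/6 at 12 and 20 months, and 9.32 CPM (29 UMIs) and 8.89 CPM (11 UMIs) in SM/J. The lowest BL/6 aliquot had 42.0 CPM and the highest SM/J aliquot 14.8 CPM. SM/J over BL/6 was -2.54 (-3.11 to -1.99) at 12 months and -3.49 (-4.37 to -2.71), or 11.3-fold lower, at 20 months. Without the cells that held transcripts of other lineages the ratio at 12 months was -3.37. T cell-like cells of the same libraries had 15.7, 8.83, 0.580 and 3.00 CPM, so each library's nonclassical level lay above its own T cell-like level, in SM/J on few UMIs.

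Within BL/6, Fcgr2b of nonclassical monocyte-like cells was higher at 20 months, with a ratio of 0.89 (0.61 to 1.18) and aliquots of 42.0 to 71.1 CPM at 12 months against 94.5 to 125 CPM at 20 months. The aliquots did not overlap. Classical monocyte-like cells held 136, 190, 62.1 and 71.6 CPM. Their age ratio in BL/6 was 0.49 (0.31 to 0.67), under the fold although its interval excludes no change, and in SM/J 0.20 (-0.35 to 0.76). The strain ratios were -1.11 (-1.55 to -0.70) at 12 and -1.40 (-1.80 to -1.02) at 20 months. With each strain clustered alone, the BL/6 age ratio was 0.14 and the strain ratio at 20 months -0.60.

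In cavity-type macrophage-like cells Fcgr2b stood at 98.5, 116, 37.0 and 67.8 CPM, on 51, 69, 19 and 388 UMIs. SM/J was again lower, by -1.39 (-2.21 to -0.62) at 12 months and by -0.77 (-1.14 to -0.38) at 20 months. The SM/J age ratio of 0.86 (0.21 to 1.58) was past the fold and that of BL/6, 0.24 (-0.30 to 0.79), was not. Under other processing settings the SM/J ratio ranged from 0.32 to 0.98, and with 1 aliquot left out from 0.53 to 1.02. Both ranges reach under the fold. SM/J aliquots spanned 17.7 to 56.2 CPM at 12 months and 53.8 to 80.2 CPM at 20 months, which overlap. Basophil-like cells held Fcgr2b at 87.4, 109.7, 81.7 and 86.2 CPM, on 15, 31, 5 and 4 UMIs, too few for a ratio.

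In B cell-like cells as a whole, Fcgr2b stood at 74.6 and 73.9 CPM in BL/6 at 12 and 20 months and at 38.1 and 21.5 CPM in SM/J. BL/6 ages differed by -0.01 (-0.22 to 0.19), and SM/J ages by -0.80 (-1.02 to -0.57). SM/J was below BL/6 by -0.95 (-1.16 to -0.74) at 12 and by -1.74 (-1.95 to -1.52) at 20 months. With each strain clustered alone, the SM/J age ratio was -1.55 and the strain ratio at 12 months -0.19. These whole-class values join clusters that differ greatly between libraries, so each cluster with at least 20 cells in a library was read on its own.

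Follicular-type clusters, with the IgE receptor Fcer2a or the IgD gene Ighd among their leading genes, had similar levels in both strains. Cluster 0 had 67.0 CPM (1496 cells) and 75.1 CPM (638 cells) in BL/6, and cluster 3 had 66.2 CPM (551 cells) and 59.5 CPM (244 cells) in SM/J. The BL/6 cells of cluster 3 (22 and 21 cells) held 81.5 and 54.5 CPM, and the SM/J cells of cluster 0 (42 and 21 cells) held 99.3 and 50.2 CPM. Of the 6 ratios of strain or age that were computed within clusters 0 and 3, none was past the fold, with intervals as wide as -2.76 to 0.98. Such wide intervals leave room for differences of the size seen over the whole class. The age ratio was 0.16 (-0.10 to 0.42) in BL/6 cluster 0 and -0.15 (-0.66 to 0.33) in cluster 3 of SM/J.

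Of the other clusters found mainly in SM/J, clusters 2, 10 and 22 held less. Cluster 10, led by Pigr and Fras1, had 6.40 CPM at 12 months (398 cells) and 25.2 CPM at 20 months (66 cells). Cluster 2, led by Gnb3 and Zcwpw1, had 15.7 CPM in 844 SM/J cells of 20 months, with aliquots of 14.9 to 16.2 CPM, and the dividing cells of cluster 22, led by Pclaf and Rrm2, had 11.4 CPM in 69 cells. Cluster 5, led by Lmo7 and Sox5 with the interleukin-5 receptor gene Il5ra, lay between, at 50.1 CPM (179 cells) and 45.1 CPM (344 cells). In 2 clusters led by Agbl1 the strains were compared at 12 months. Cluster 8 had a ratio of -1.15 (-2.96 to 0.20), which includes no change and rests on 4 UMIs in 20 SM/J cells. Cluster 13 had 1.14 (0.43 to 1.85), on 37 UMIs in 76 SM/J cells and 33 in 125 BL/6 cells. When clusters 2 and 22 were left out, a choice made after seeing the data, the SM/J age ratio of Fcgr2b in B cell-like cells was 0.25 instead of -0.80, and the strain ratio at 20 months was -0.66 instead of -1.74.

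**Figure D4:**
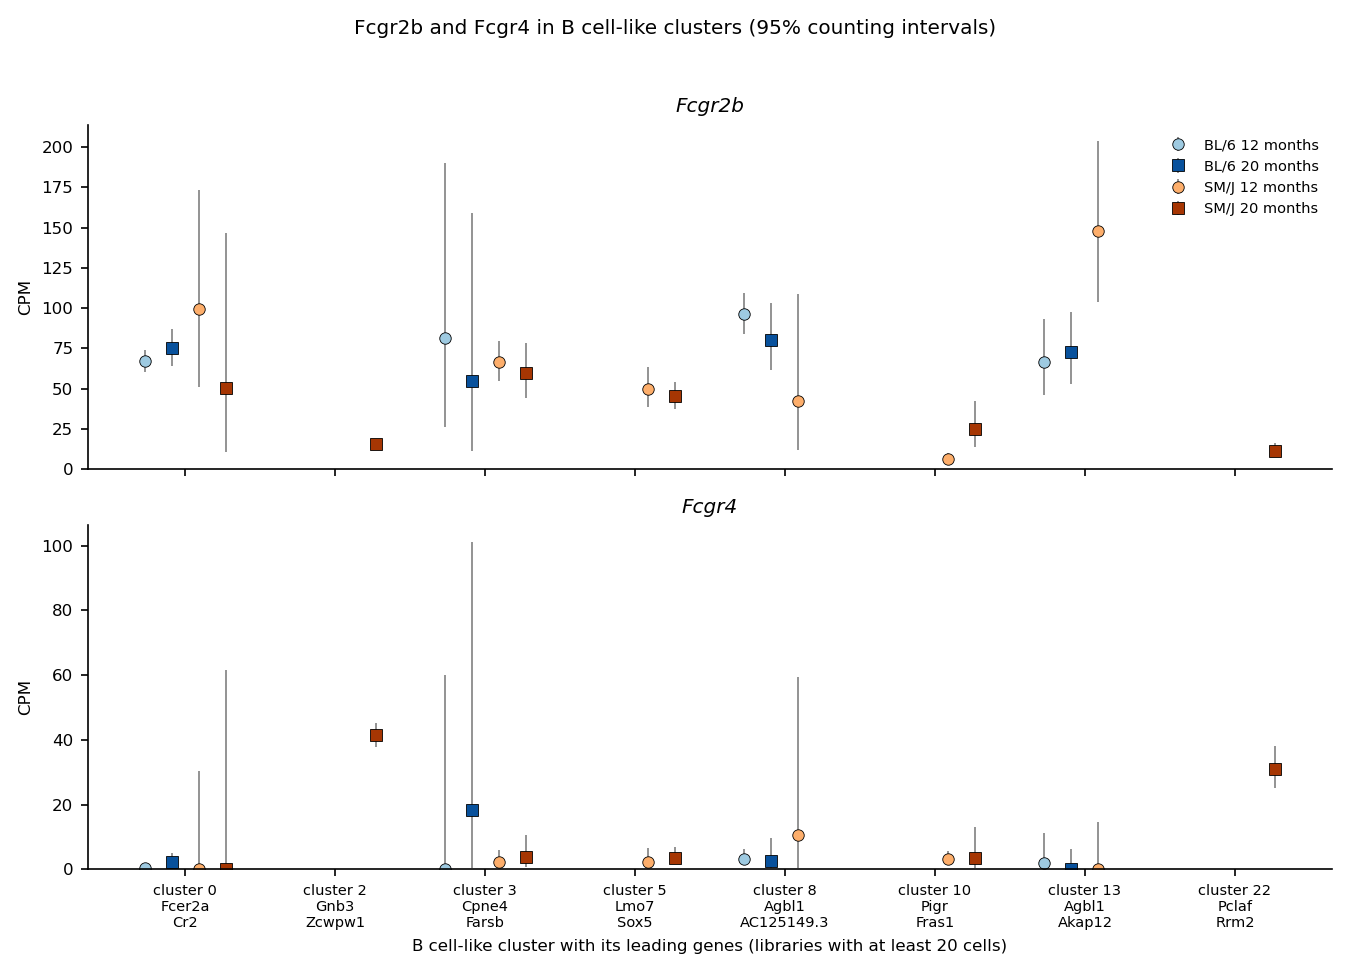
Fcgr2b (top) and Fcgr4 (bottom) in B cell-like clusters, in CPM with 95% counting intervals, for libraries with at least 20 cells in the cluster; 2 leading genes are given under each cluster. Fcgr2b is at 15.7 and 11.4 CPM in clusters 2 and 22 and Fcgr4 at 41.4 and 31.1 CPM there, while elsewhere Fcgr4 rests on few UMIs, the BL/6 point of cluster 3 at 20 months on 1.

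The same clusters held Fcgr4, a gene that B cells are not known for. Over all B cell-like cells its level was 1.39, 2.10, 3.57 and 32.0 CPM. Of the 626 Fcgr4 UMIs of SM/J at 20 months, 521 were in cluster 2 and 90 in cluster 22, together 97.6%. In cluster 2, 347 of 844 SM/J cells of 20 months had an Fcgr4 UMI (41.1%, exact Clopper-Pearson interval 37.8 to 44.5%), 113 of them at least 2 UMIs and at most 6. The 3 aliquots had 37.1 to 44.0 CPM.

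The comparison of all SM/J B cell-like cells gave an age ratio of 2.85 (2.37 to 3.34) and a strain ratio at 20 months of 3.41 (2.67 to 4.12), and the comparison of strains at 12 months could not be read. These cells were deep, with a median of 12491.5 UMIs in cluster 2 and 27583 in cluster 22, and after thinning to 1000 UMIs the shares were 3.44% and 0%. Depth differs from other B cell-like clusters, where 0% to 5% of cells had a UMI, whereas CPM is scaled to the total of the cluster. The macrophage and monocyte gene Csf1r had a UMI in 2.96% of cluster 2 cells and in 3.75% of those with Fcgr4. Every cell with Fcgr4 had a UMI of a B cell marker. Because the clusters were named by such markers and are deep, that cannot show which cells made Fcgr4. Without B cell-like cells that held Csf1r or a T cell transcript, the SM/J age ratio was 2.80. At 12 months SM/J had 15 cells of cluster 2, of which 5 (33.3%) had an Fcgr4 UMI.

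The signalling chain Fcer1g was the most abundant of the 6 genes in the monocyte-like, macrophage-like, NK cell-like and basophil-like cells, while Fcgr2b exceeded it in the B cell-like cells of each library. In classical monocyte-like cells it stood at 2038, 2029.8, 1308 and 1360.0 CPM and in nonclassical ones at 2379, 2113, 1206 and 1171 CPM. BL/6 was above SM/J in both classes, and ages of a strain lay close together. SM/J over BL/6 in nonclassical monocyte-like cells was -0.98 (-1.04 to -0.92) at 12 months and -0.85 at 20 months, both past the fold. In classical monocyte-like cells it was -0.64 (-0.73 to -0.55) at 12 months, past the fold, and -0.58 (-0.67 to -0.49) at 20 months, just under it, and past it with TMM scaling. Age ratios ranged from -0.17 to 0.06 in the monocyte-like classes of both strains. Macrophage-like cells held less Fcer1g in every library, at 701, 756, 791 and 846 CPM, and no comparison there was past the fold with the main processing. SM/J over BL/6 at 20 months was 0.16 there. Under other processing settings it ranged from -0.03 to 1.02, with the upper end above the fold.

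NK cell-like cells held Fcer1g at 1435, 1774, 1291 and 1029.7 CPM. Its 20-month level was higher than that of 12 months in BL/6, by 0.31 (0.14 to 0.47), and lower in SM/J, by -0.33 (-0.61 to -0.04), neither past the fold. SM/J was below BL/6 at 20 months by -0.78 (-1.03 to -0.55). Fcgr1, Fcgr4 and Fcgrt each had 0 to 3 UMIs in the NK cell-like cells of a library, and Fcgr2b had 4, 6, 1 and 1 UMIs, in 4.12%, 7.58%, 1.67% and 1.92% of cells. The IgG-binding chains together thus had few UMIs beside those of Fcer1g. Basophil-like cells, which use the γ chain for the IgE receptor, held Fcer1g in 100% of cells, at 1381, 1724, 1291 and 1465 CPM. In B cell-like cells the levels of 36.0, 21.6, 18.1 and 8.45 CPM were not above the range of T cell-like cells (15.0 to 27.0 CPM) by the margin set for reading. Within cluster 8 of BL/6, however, Fcer1g stood at 87.3 CPM at 12 months (199 UMIs, in 19.5% of 348 cells) and 33.0 CPM at 20 months (25 UMIs, in 14.5% of 124 cells), a ratio of -1.38 (-2.02 to -0.79). Cluster 0 of BL/6 had 14.4 and 16.7 CPM.

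Fcgrt, in contrast, was higher in SM/J. Macrophage-like cells held it at 63.7, 135, 249 and 284 CPM (33, 80, 128 and 1627 UMIs), nonclassical monocyte-like cells at 47.5, 62.7, 130 and 179 CPM and classical ones at 31.8, 31.2, 99.6 and 100.1 CPM. SM/J exceeded BL/6 at each age in all 3 classes, and in nonclassical cells the SM/J aliquots (125 to 224 CPM) lay above the BL/6 aliquots (35.3 to 67.9 CPM). The strain ratios at 12 months were 1.95 (1.40 to 2.54) in macrophage-like, 1.43 (1.12 to 1.75) in nonclassical and 1.62 (1.17 to 2.06) in classical monocyte-like cells. At 20 months they were 1.07 (0.75 to 1.41), 1.496 (1.24 to 1.75) and 1.65 (1.25 to 2.05), the last 2.51 with each strain clustered alone. T cell-like cells had 19.0 to 43.5 CPM, and the BL/6 classical monocyte-like levels lay in that range; how much of either was free RNA was not tested. In BL/6 macrophage-like cells Fcgrt was higher at 20 months, by 1.07 (0.48 to 1.69), with aliquots of 31.0 to 103 CPM at 12 months and 108 to 151 CPM at 20 months. In SM/J macrophage-like cells the age ratio was 0.19 (-0.07 to 0.46).

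Counted over the 36 pairs of a gene and a class, 19 could be read between the ages of BL/6, of which 5 were past the fold (2 higher and 3 lower at 20 months). By class these were 2 of 5 in macrophage-like cells, where 13.6% of all genes tested were past the fold (7.05% higher and 6.52% lower), 2 of 5 in nonclassical monocyte-like cells (9.3% of all genes, 4.98% higher and 4.32% lower) and 1 of 5 in classical ones (9.43%, 4.46% higher and 4.97% lower). They were 0 of 1 in B cell-like cells (5.12%, 2.74% higher and 2.38% lower), 0 of 1 in NK cell-like cells (11.2%, 6.05% higher and 5.12% lower) and 0 of 2 in basophil-like cells (19.7%, 12.4% higher and 7.34% lower). Between the ages of SM/J, 7 of 19 pairs were past it (5 higher and 2 lower). These were 3 of 6 in macrophage-like cells (8.96% of all genes, 4.24% higher and 4.72% lower), 1 of 5 in nonclassical (5.84%, 2.22% higher and 3.62% lower) and 1 of 5 in classical monocyte-like cells (11.1%, 4.65% higher and 6.43% lower). They were 2 of 2 in B cell-like cells (28.2%, 13% higher and 15.3% lower) and 0 of 1 in NK cell-like cells (9.78%, 5.75% higher and 4.03% lower). Fcgr4 was read in B cell-like cells only through its level in SM/J at 20 months, here and between strains at 20 months, so its count there cannot be read against the share of all genes. The shares of all genes rest on the UMI and cell minimum alone, without the margin over T cell-like cells. Because that margin is taken in the higher library, a pair can enter through that library alone. With so few genes a class, the counts describe these 6 genes, and an excess over the shares cannot be read from them.

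Between strains at 12 months, 13 of 19 pairs were past the fold, 3 higher and 10 lower in SM/J. These were 5 of 6 in nonclassical monocyte-like cells (18.5% of all genes, 12.4% higher and 6.08% lower), 4 of 6 in classical ones (17.4%, 11.2% higher and 6.19% lower) and 3 of 5 in macrophage-like cells (24.6%, 14.2% higher and 10.4% lower). They were 1 of 1 in B cell-like cells (25.3%, 10.3% higher and 15% lower) and 0 of 1 in NK cell-like cells (15%, 6.26% higher and 8.71% lower). At 20 months 14 of 21 pairs were past it, 6 higher and 8 lower in SM/J. These were 4 of 6 in nonclassical (14.1%, 7.77% higher and 6.28% lower) and 4 of 6 in classical monocyte-like cells (16.3%, 9.7% higher and 6.57% lower), and 3 of 6 in macrophage-like cells (20.7%, 10.9% higher and 9.84% lower). They were 2 of 2 in B cell-like cells (50.1%, 20.9% higher and 29.2% lower) and 1 of 1 in NK cell-like cells (18.7%, 8.76% higher and 9.93% lower). The comparisons of strains and of ages share libraries, so the 4 counts are not independent. Here too the shares of all genes lack the margin over T cell-like cells. Fcgrt of classical monocyte-like cells, for example, was read between strains only through its SM/J level. These counts therefore cannot be read as an excess over those shares.

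The ratio of activating to inhibitory receptor UMIs (Fcgr1, Fcgr3 and Fcgr4 over Fcgr2b), which does not depend on scaling, was higher in SM/J than in BL/6 in all 3 myeloid classes. In classical monocyte-like cells it was 2.94 (2.60 to 3.33), 1.90 (1.75 to 2.06), 6.11 (4.56 to 8.34) and 4.64 (3.48 to 6.27). Nonclassical monocyte-like cells had 9.98 (8.32 to 12.1), 5.10 (4.64 to 5.61), 17.4 (12.0 to 26.3) and 25.1 (13.8 to 50.9). Macrophage-like cells had 8.04 (6.00 to 10.98), 4.304 (3.30 to 5.68), 15.2 (9.53 to 25.5) and 12.1 (10.9 to 13.4).

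Within BL/6 the ratio was lower at 20 months in each of the 3 classes, and the intervals of the ages did not overlap. The aliquots did overlap in macrophage-like cells, at 4.64 to 9.79 and 2.63 to 6.00. Within SM/J the intervals of the ages overlapped in each class. In basophil-like cells it was 1.93, 1.52, 4.40 and 3.75, with intervals as wide as 1.19 to 15.5. The make-up of the activating UMIs differed too. Fcgr4 made up 74.1% and 73.2% of them in BL/6 nonclassical monocyte-like cells but 34.0% and 43.5% in SM/J, where Fcgr3 made up 57.7% and 49.6%. In macrophage-like cells Fcgr3 was the largest part in every library, at 66.6%, 86.2%, 93.4% and 76.7%.

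**Figure D5:**
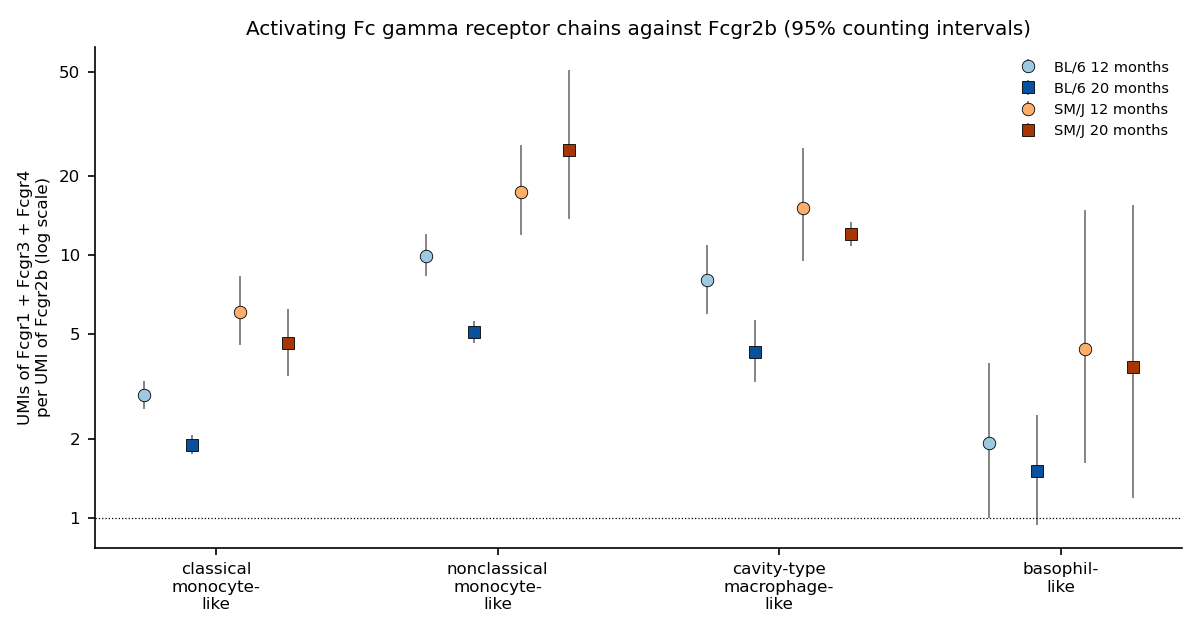
UMIs of the activating chains Fcgr1, Fcgr3 and Fcgr4 per UMI of the inhibitory Fcgr2b (log scale), by class and library, with exact 95% counting intervals. SM/J points lie above the BL/6 point of the same age in each class, and in nonclassical monocyte-like cells they reach 17.4 and 25.1 against 9.98 and 5.10. In basophil-like cells the SM/J points rest on 5 and 4 Fcgr2b UMIs, and the intervals of the strains overlap.

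Pairs of these genes in the same cell were counted at 1000 UMIs per cell and set beside the product of their shares, as a description with no test. Some pairs lay close to it: Fcgr2b and Fcgr4 were seen together in 2.50% of BL/6 nonclassical monocyte-like cells of 12 months, where the product is 2.49%, and Fcgr3 and Fcgr4 in 7.04% of SM/J macrophage-like cells of 20 months, where it is 6.84%. Others lay above or below it. In BL/6 classical monocyte-like cells of 20 months Fcgr2b and Fcgr4 were together in 1.66% (8 cells) against 0.933%. In BL/6 nonclassical monocyte-like cells of 20 months Fcgr4 and Fcgrt were together in 2.78% (19 cells) against 1.90%, while Fcgr2b and Fcgr3 were together in 0.732% (5 cells), below the product of 10.2% and 11.7%.

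Across 25 sums of a class and a library with at least 50 cells, the genes whose levels ran most like each member were listed from 6598 genes. The likeness is Pearson's r of log2(CPM + 1), given as a description because sums share libraries and clusters. For Fcgr1 these were Tnfaip2 (0.95), Aif1 (0.95) and Gm9733 (0.95), for Fcgr3 Cdkn1a (0.97), Fnip2 (0.96) and Lilrb4a (0.94), and for Fcgr4 Cd300ld (0.90), Pilra (0.89) and Tgm2 (0.89). For Fcgr2b they were Atp6v0b (0.86), Bri3 (0.85) and Dusp22 (0.85), for Fcer1g Snx10 (0.92), Cdc42 (0.92) and Tnfsf12 (0.91), and for Fcgrt Klf9 (0.89), Smpdl3a (0.89) and Tiparp (0.88). Between members, r was highest for Fcgr1 and Fcgr3 (0.82) and lowest for Fcer1g and Fcgrt (0.15). Macrophage-like cells met the minimum of 50 cells only in SM/J at 20 months, and basophil-like cells only in BL/6 at 20 months. The sums join classes as well as libraries, so r also covers differences between classes.

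A list of 32 genes of the pathway (kinases and adaptors, inhibitory signalling, other immunoglobulin receptors and partners) was read in the same way in 4 classes. In BL/6, 0 were higher and 2 lower at 20 months of 23 tested in classical monocyte-like cells (8.70% past the fold, against 9.43% of all genes), 0 and 1 of 22 in nonclassical ones (4.55% against 9.3%), and 1 and 1 of 18 in macrophage-like cells (11.1% against 13.6%). In SM/J these counts were 1 and 3 of 19 (21.1% against 11.1%), 0 and 2 of 24 (8.33% against 5.84%), and 0 and 0 of 24 (against 8.96%). The list's median ratio in classical monocyte-like cells was -0.05 in BL/6 and -0.11 in SM/J, against 0.02 and 0.01 over all genes.

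B2m, the partner of FcRn and of class I molecules, was lower at 20 months in the classical monocyte-like cells of both strains. It stood at 2078 and 1295 CPM in BL/6, a ratio of -0.68 (-0.74 to -0.63). In SM/J it stood at 2539.8 and 1577 CPM, a ratio of -0.69 (-0.79 to -0.59). In BL/6 macrophage-like cells B2m had a ratio of -0.89 (-1.02 to -0.75), where Fcgrt itself was higher. In classical monocyte-like cells of SM/J the kinase gene Prkcd had -0.85 (-1.15 to -0.56) and Fyn 0.82 (0.36 to 1.30); whether the strains differed in them was not tested. The adaptor gene Lat2 had -0.60 (-0.96 to -0.24) in BL/6 nonclassical monocyte-like cells.

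Between strains, 3 pathway genes were higher and 4 lower in SM/J of 24 tested in nonclassical monocyte-like cells at 12 months (29.2% past the fold, against 18.5% of all genes). At 20 months the counts were 0 and 2 of 22 (9.09% against 14.1%). Tyrobp, an adaptor of the same kind as the γ chain, was lower in SM/J at both ages, at 1292 against 2093 CPM at 12 months, a ratio of -0.70 (-0.76 to -0.63), and by -0.65 (-0.73 to -0.57) at 20 months. Prkcd was lower by -0.66 (-0.79 to -0.54) and -0.59 (-0.77 to -0.42). The B cell adaptor Blnk had a ratio of 4.07 (2.85 to 4.88) at 12 months, on 97 UMIs in SM/J and 2 in BL/6, in the class in which B cell markers were higher in SM/J. In classical monocyte-like cells the counts were 1 and 1 of 21 at 12 months (9.52% against 17.4%) and 1 and 0 of 22 at 20 months (4.55% against 16.3%). Inpp5d, which encodes the phosphatase SHIP1 recruited by FcγRIIb, had a ratio of 0.67 (0.52 to 0.83) at 12 months, and Fyn 1.03 (0.69 to 1.35) at 20 months.

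In macrophage-like cells 0 were higher and 2 lower of 18 at 12 months (11.1% past the fold, against 24.6% of all genes). At 20 months the counts were 1 and 4 of 24 (20.8% against 20.7%). The PI3-kinase subunit Pik3cd was lower in SM/J at both ages, by -0.91 (-1.66 to -0.20) and -1.22 (-1.64 to -0.78). In B cell-like cells 4 were higher and 7 lower of 27 at 12 months (40.7% past the fold, against 25.3% of all genes). At 20 months the counts were 4 and 15 of 28 (67.9% against 50.1%). The largest age ratios in SM/J B cell-like cells were those of the polymeric immunoglobulin receptor Pigr, -4.65 (-4.97 to -4.31), the IgE receptor Fcer2a, -3.05 (-3.28 to -2.82), and the IgM receptor Fcmr, -2.80 (-2.89 to -2.71). Fcrla had -1.68 (-1.82 to -1.54) and Fyn -1.49 (-1.75 to -1.23). Of 29 genes of the list tested between these ages, 2 were higher and 8 lower (34.5% past the fold, against 28.2% of all genes). These ratios too join the B cell-like clusters described above, which differ in size between the libraries.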

How the data were processed

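Each deposited matrix gives unnormalised UMI counts, cell by cell, and per the file headers the authors made them with Cell Ranger 7.0.1. The submitters' processing notes also name mm10 and Seurat 4.3.0. No source used here gives the annotation or how cells were called. SM/J reads that differ from the reference may go uncounted or to a similar gene.

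Cells needed 500 UMIs, 200 genes and at most 10% mitochondrial UMIs. Scrublet (scanpy 1.11.5) called 0.775 to 1.34% of cells per library doublets, which were left out. The 2000 variable genes excluded the 6 members. Then 30 components, 15 neighbours and Leiden clustering (resolution 1.0, seed 0) gave 26 clusters, 1 unnamed, named by 13 marker lists. Class names rest on transcripts, and -like classes were not sorted.

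UMIs were summed per class and library. Intervals are exact Poisson, Clopper-Pearson or conditional binomial ones at 95%. There is no test, since each strain and age had 1 library. In 20 BL/6 and 28 SM/J deposited cells of 12 months the leading tag was not one listed for that library, or no tag was counted. These entered no aliquot. Scripts were tested on simulated data. Named genes were all members in every class, up to 5 pathway genes per comparison with the largest ratios past the fold, and 3 genes most like each member. A pathway gene that this rule takes in is not reported here. Members and lists were chosen with earlier results of these data known. There were 15 alternatives planned and 2 added after seeing the data. Python 3.11.15, scipy 1.17.1, R 4.3.3 and edgeR 4.0.16 (TMM only) were used.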

Additional observations from a re-analysis of the deposited data

Results flagged for a closer look

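Fcgr4 of cavity-type macrophage-like cells differed between ages in opposite directions in the strains: the log2 ratio of 20 over 12 months was -2.20 (-2.80 to -1.63) for BL/6 but 2.41 (1.70 to 3.21) for SM/J, which differ by 4.60. In each strain the 3 aliquots of one age did not overlap those of the other. The difference was not tested, because each strain and age had 1 library, and 3 of the 4 libraries had 30 to 38 such cells.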

How the results depend on the processing

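No paired analysis was possible because each strain and age had 1 library and the labels carry no replicate numbers. The number of gene and class pairs past the fold was 5 between BL/6 ages, 7 between SM/J ages, 13 between strains at 12 months and 14 at 20 months. Between BL/6 ages it was 3 with a mitochondrial limit of 5%, 1 with cells thinned to 1000 UMIs, 2 with a UMI minimum of 200 and 3 with a fold of 2. Between SM/J ages it was 1 when thinned and 3 with a fold of 2, and between strains at 12 months 5 when thinned and 6 with the minimum of 200; thinning and the higher minimum leave fewer pairs to read. Leaving out 1 aliquot at a time gave 3 to 5, 4 to 7, 10 to 13 and 13 to 16. The lowest counts within a strain came without aliquot 1 or 3 of BL/6 at 12 months (3) and without aliquot 2 of SM/J at 12 months (4), which leave macrophage-like cells under the 20 cells needed. Of single log2 ratios, recomputed under each alternative, 1451 lay within the counting interval of the reported value, 83 outside it and 2 reversed a called direction: Fcgr4 of classical monocyte-like cells, SM/J over BL/6 at 20 months, was 0.094 with each strain clustered alone, where the cause was not tested, and Fcgr2b of B cell-like cells, 20 over 12 months in SM/J, was 0.25 with the clusters led by Zcwpw1 or Mki67 left out, a setting added after seeing the data. Fcgr4 of macrophage-like cells ranged from -2.28 to -2.12 between BL/6 ages and from 2.26 to 7.45 between SM/J ages, the last with thinned cells, where SM/J of 12 months had no UMI left. TMM scaling shifted log2 ratios by over 0.1 in B cell-like cells (0.16 between SM/J ages and 0.33 between strains at 20 months), in classical monocyte-like cells between strains (-0.16 and -0.18), in nonclassical ones (-0.13 and -0.10) and in NK cell-like cells at 12 months (-0.12). The number of cells limits the macrophage-like class (30 to 38 cells in 3 libraries) and the basophil-like class (11 to 56 cells).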

Other observations

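Plasmacytoid dendritic cell-like cells (29, 53, 49 and 46 cells in BL/6 at 12 and 20 months and SM/J at 12 and 20 months), which were outside the classes chosen, also held these genes. Fcgr3 stood at 50.3, 118, 55.0 and 246 CPM, with age ratios of 1.21 (0.44 to 2.05) for BL/6 and 2.14 (1.47 to 2.88) for SM/J. Fcgr2b stood at 26.6, 118, 62.9 and 94.8 CPM, with 2.10 (1.12 to 3.23) between BL/6 ages, and Fcgrt at 127, 151, 36.7 and 183 CPM, with 2.29 (1.47 to 3.19) between SM/J ages. In SM/J the share of these cells with an Fcgr3 UMI was 4.08% at 12 months and 39.1% at 20 months, at median depths of 7155 and 8307.5 UMIs, against at most 5.24% of T cell-like cells. Platelet-like cells of BL/6 (150 and 173 cells) held Fcer1g, the partner of the collagen receptor glycoprotein VI on platelets, at 743 and 1066 CPM, in 54.0% and 56.1% of cells, and had no UMI of Fcgr2b, Fcgr3 or Fcgrt. Plasma cell-like cells of SM/J at 20 months had an Fcgr4 UMI in 5 of 26 cells (19.2%), or 18.7 CPM.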
